A study of Homo sapiens with 27 samples.

Results

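The glutathione S-transferases (GST), UDP-glucuronosyltransferases (UGT) and cytochrome P450 enzymes (CYP) were examined in long-term estrogen-deprived (LTED) variants of the human invasive lobular carcinoma cell lines MDA-MB-134VI (MM134) and SUM44PE (SUM44). Genes were chosen by symbol, with earlier results of these data known. They were the protein-coding genes whose GENCODE symbol begins with GST and a class letter, UGT or CYP and then a number. CYP19A1, CYP51A1, UGT2B7 and UGT2B15 were left out by rule. This gave 91 of the 60619 genes in the count file, namely 18 GST, 18 UGT and 55 CYP genes.

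Both are established breast cancer lines that express the estrogen receptor. Parental groups were MM134 cells, SUM44PE cells and SUM44F cells, the last being SUM44PE cells adapted to medium with fetal bovine serum and used as the parent of the SUM44 LTED variants. Hormones were withdrawn from all parental cells for 3 days ahead of harvest. Of MM134 there were 4 LTED variants, called A, B, D and E, and of SUM44 there were 2, called A and B, which grew out over months in medium with charcoal-stripped serum, with no other agent or genetic change made. Each variant is 1 derivation, and replicates were wells of 1 culture, so the p-values measure the spread between wells of these cultures. Each of the 9 groups had 3 RNA-Seq libraries, but in SUM44 LTED-A the libraries of replicates 2 and 3 were closer than sampling noise allows and count as 1 sample, which leaves 26 samples.

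Phase I enzymes, chiefly the CYP family, oxidize drugs, carcinogens, steroids and fatty acids in the endoplasmic reticulum or mitochondria. Phase II enzymes then attach a water-soluble group. GSTs add glutathione to reactive molecules, and UGTs transfer glucuronic acid from UDP-glucuronic acid to steroids, bilirubin, bile acids and drugs. Liver and gut carry most of this capacity, while breast epithelium is known for a smaller set such as CYP1B1, CYP4Z1 and several GSTs.

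Library totals ran from 28583554 to 134882175 estimated counts (median 44018412). All 7 luminal breast markers reached 1 CPM (a count scaled to a library of fixed size) in every group. SUM44F replicate 1 stood apart, since its summed level of the stromal genes COL1A1, COL3A1 and DCN was 259.3 CPM against 4.505 to 30.24 CPM in the other 25 libraries. The total count of DE members in each comparison with SUM44F is therefore given with and without it. Counts by family and by list are given with it only. Of the 10 immune, stromal and endothelial markers, CD3E stayed under 0.0572 CPM in every group and PTPRC under 0.288 outside SUM44F, but others differed between groups. Mean CD68 was 0.2156 CPM in MM134 parental cells and 14.36, 6.797, 3.988 and 2.588 in LTED-A, -B, -D and -E, and LYZ was 0.2748 and 9.743, 1.767, 0.7119 and 2.158. PECAM1 was 25.28 CPM in SUM44F, 7.947 in SUM44PE, 1.972 in SUM44 LTED-A and 3.347 in LTED-B. The summed list ran from 8.537 to 41.24 CPM in all groups but SUM44F, where it reached 306.3, and its part in the results was not tested. In bulk RNA, fewer expressing cells and less RNA per cell cannot be told apart.

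Levels are given as CPM after TMM scaling over all samples. A gene with at most 3 counts in every library of a group was taken as below detection there. Only 21 of the 91 genes reached 1 CPM in every group, 51 reached it in at least 1 group, 35 were detected but stayed under 1 CPM, and CYP11B1, CYP11B2, CYP2A13, GSTA5 and UGT2A2 were below detection throughout. The number of genes at 1 CPM or more was 32 in MM134 parental cells and 31 to 34 in its variants. It was 36 in SUM44PE, 37 in SUM44F, 30 in SUM44 LTED-A and 25 in SUM44 LTED-B. Per kilobase of exon, the highest means over the 9 groups belonged to UGT2B4 (65.66 CPM per kb), GSTM3 (50.6) and CYP1B1 (43.06).

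**Figure D1:**
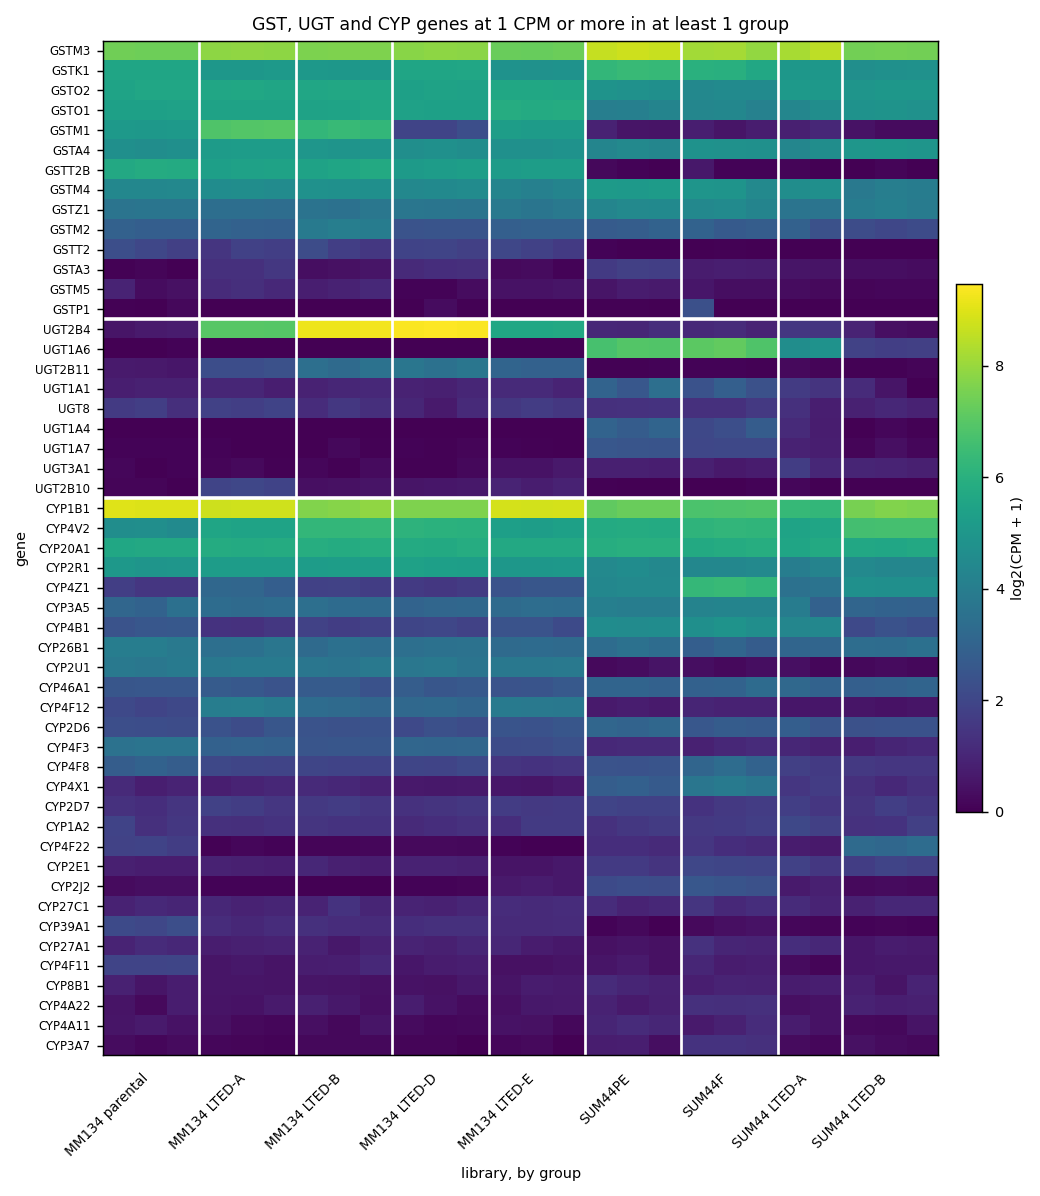
Levels of the 51 genes that reached 1 CPM in at least 1 group, drawn as log2(CPM + 1) with 1 row per gene (ordered by family) and 1 column per sample (26 samples in 9 groups). UGT2B4 is bright in all 12 MM134 LTED libraries and dark in the 3 MM134 parental libraries, while UGT1A6 is bright in SUM44PE and SUM44F and dark in MM134.

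Differential expression (DE) was called at a fold change above 1.5 and a p below 0.001 in edgeR's quasi-likelihood test after Benjamini-Hochberg adjustment over all genes tested. Every adjusted p given here comes from that test. In MM134, 60 of the 91 genes passed the filter on low counts. LTED-A had 18 DE genes (11 up and 7 down, 30.0% of those tested, against 27.3% of protein-coding genes), LTED-B had 20 (11 up and 9 down, 33.3% against 21.4%), LTED-D had 14 (6 up and 8 down, 23.3% against 23.8%) and LTED-E had 17 (10 up and 7 down, 28.3% against 25.8%). The median log2 fold change was 0.10, 0.22, -0.03 and 0.03 in that order, against 0.00, 0.00, 0.02 and 0.01 for all protein-coding genes tested. The 4 comparisons share the parental libraries.

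In SUM44, 64 genes were tested. LTED-A had 16 DE genes (2 up and 14 down, 25.0% against 22.6% of protein-coding genes), and LTED-B had 20 (4 up and 16 down, 31.2% against 26.4%). The share of members called down can be set beside 11.8% and 12.0% of protein-coding genes called down. Their median log2 fold changes were -0.47 and -0.82, against 0.01 and 0.05 for protein-coding genes. Without SUM44F replicate 1 the counts were 15 (1 up and 14 down) and 16 (2 up and 14 down). A gene that passed the filter only through the group where it was high was bound to differ, so these counts describe the tested genes alone.

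By family, of 6 UGT genes tested in MM134, 3 were DE upward in LTED-A and LTED-B, 3 in LTED-D with 1 downward, and 4 in LTED-E. Of 9 tested in SUM44, none was DE upward, and DE downward were 2 (LTED-A) and 4 (LTED-B). The 15 GST genes tested in MM134 had 4, 5, 1 and 2 DE upward and 0, 0, 1 and 1 downward in LTED-A, -B, -D and -E. The 13 tested in SUM44 had 1 up and 2 down in LTED-A and 5 down in LTED-B. Among 39 CYP genes tested in MM134, 7, 9, 6 and 6 were DE downward and 4, 3, 2 and 4 upward. Of 42 tested in SUM44, 10 were DE downward and 1 upward in LTED-A, and 7 downward and 4 upward in LTED-B. Beside these, 13.8%, 10.4%, 13.5% and 11.8% of protein-coding genes were DE upward and 13.5%, 11.1%, 10.3% and 14.0% downward in MM134 LTED-A, -B, -D and -E, and 10.8% and 14.5% were DE upward in the SUM44 variants.

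**Figure D2:**
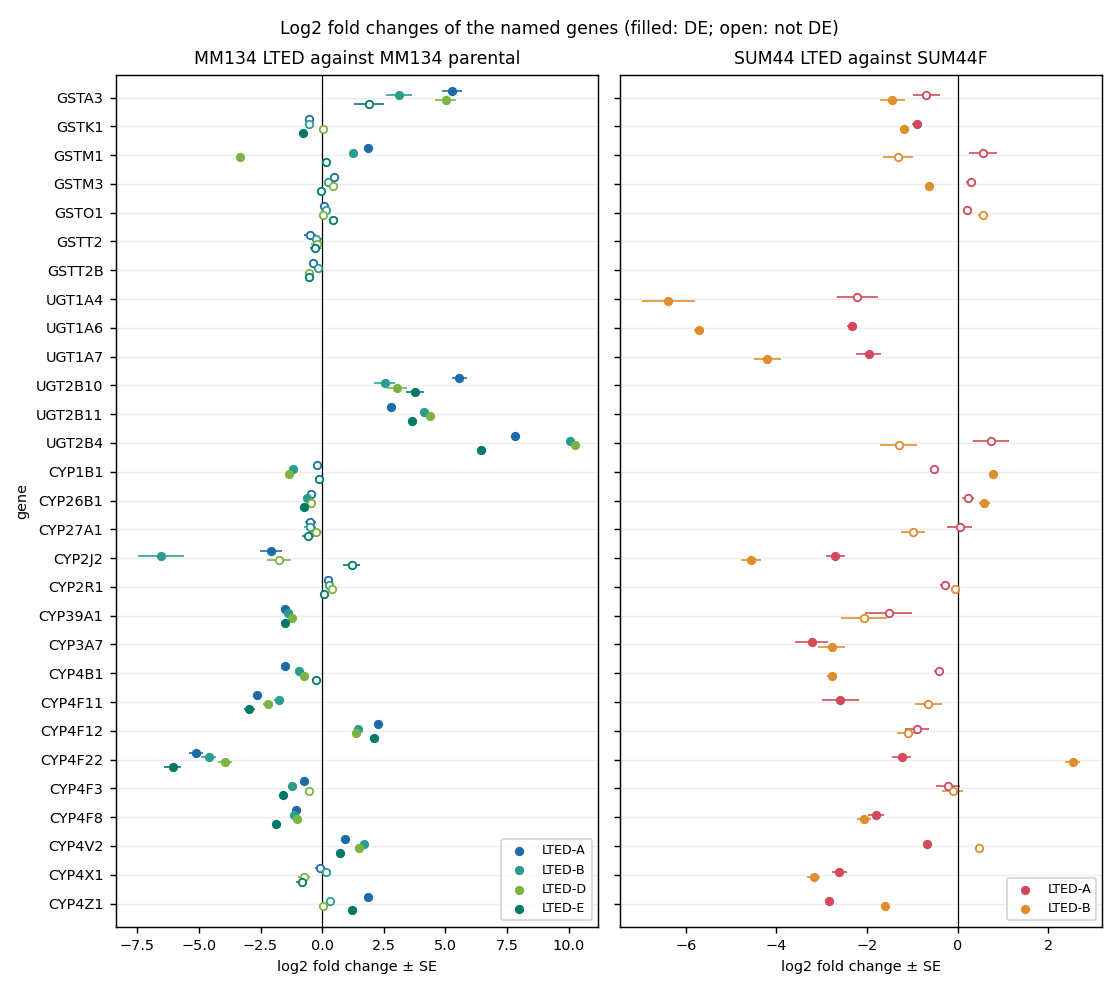
Log2 fold change against the parental line for the 29 genes picked by the fixed naming rule, with standard errors, for the 4 MM134 LTED variants on one panel and the 2 SUM44 LTED variants on the other (filled points are DE, open points are not). UGT2B4 lies at 6.46 to 10.26 in the MM134 variants, and UGT1A6 lies at -2.33 and -5.70 in the SUM44 variants.

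UGT2B4, a liver enzyme that glucuronidates bile acids and other endogenous substrates, gave the largest rise in every MM134 variant among members that reached 1 CPM. The gene lies at chr4:69480165-69526014 on the minus strand (hg38). MM134 parental libraries held 0.457, 0.593 and 0.648 CPM. LTED-E held 49.1, 48.4 and 50.7 CPM, LTED-A 128, 129 and 125, LTED-B 589, 589 and 625, and LTED-D 679, 704 and 680. The 5 groups did not overlap, and their levels ran upward from parental through LTED-E, LTED-A and LTED-B to LTED-D. The log2 fold changes were 7.81 ± 0.06 (SE) in LTED-A, 10.06 ± 0.06 in LTED-B, 10.26 ± 0.06 in LTED-D and 6.46 ± 0.07 in LTED-E, and the largest of the 4 adjusted p-values was 1.23e-34. UGT2B4 stayed near 1 CPM in SUM44, at 1.15, 1.27 and 0.901 in SUM44F, 1.88 and 1.77 in LTED-A and 0.903, 0.296 and 0.251 in LTED-B. Neither SUM44 variant was DE (log2 0.73 ± 0.40 with adjusted p = 0.191, and -1.30 ± 0.41 with adjusted p = 0.0231).

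UGT2B11 and UGT2B10, neighbors of UGT2B4 in the cluster on chromosome 4, were also DE upward in all 4 MM134 variants. UGT2B11 (chr4:69199951-69214748, minus strand) read 0.600, 0.566 and 0.486 CPM in parental cells. It read 3.71, 3.73 and 4.09 CPM in LTED-A, 10.1, 8.69 and 10.7 in LTED-B, 12.1, 10.5 and 12.1 in LTED-D and 7.31, 6.75 and 6.76 in LTED-E. The log2 fold changes were 2.78 ± 0.14, 4.15 ± 0.13, 4.39 ± 0.13 and 3.65 ± 0.13 in that order, with adjusted p of at most 1.1e-17. All SUM44 libraries were at or under 0.173 CPM.

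UGT2B10 (chr4:68815994-68832023, plus strand), an enzyme known for glucuronidating amines such as nicotine, was below detection in MM134 parental cells at 0.0857, 0.0809 and 0 CPM. It passed the filter in MM134 only through LTED groups, so a call there was bound to come out. LTED-A stood highest at 2.85, 3.08 and 2.79 CPM, followed by LTED-E at 0.938, 0.677 and 0.855. LTED-D held 0.452, 0.477 and 0.534 CPM and LTED-B 0.302, 0.331 and 0.423. Set against 3 counts per parental library, the levels were at least 33.04-fold higher in LTED-A, 9.366-fold in LTED-E, 5.545-fold in LTED-D and 3.999-fold in LTED-B. The order of the variants differed from that of UGT2B4 and UGT2B11, whose highest variant was LTED-D.

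The windows before the RefSeq start sites of UGT2B10 and UGT2B11 (GRCh38.p14) are shown because both genes rose together and the windows are alike. They run 250 bases up to the start, at chr4:68815744-68815993 on the plus strand and chr4:69214749-69214998 on the minus strand. Capitals mark a reverse-strand match to TGACNNNGC, the core of the antioxidant response element bound by NRF2, at position -213 in UGT2B10 and -217 in UGT2B11.
UGT2B10: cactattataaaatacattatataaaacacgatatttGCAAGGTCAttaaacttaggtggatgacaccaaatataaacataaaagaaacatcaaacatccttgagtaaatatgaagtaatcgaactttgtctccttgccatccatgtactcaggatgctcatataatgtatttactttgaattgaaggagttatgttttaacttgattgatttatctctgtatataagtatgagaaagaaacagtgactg
UGT2B11: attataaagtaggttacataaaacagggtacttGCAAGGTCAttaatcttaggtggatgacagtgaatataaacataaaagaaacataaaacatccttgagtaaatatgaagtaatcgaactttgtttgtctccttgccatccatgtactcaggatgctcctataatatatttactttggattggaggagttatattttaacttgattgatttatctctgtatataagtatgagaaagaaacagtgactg
Of 246 aligned bases, 229 were identical (93.1%). Both strands were searched in windows of 250 bases before to 50 after the start. TGACNNNGC stood in 13 of 80 windows of the members (16.2%) and in 13.3% of all 35116 windows in the table. The match is a description of the letters and not of binding. Windows were found for 68 of the 91 genes, and none was given for UGT2B4.

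Summed over the UGT2B genes chosen, levels were 1.172 ± 0.0591 CPM (SD, n = 3) in MM134 parental cells, 134.4 ± 2.193 in LTED-A, 611.5 ± 21.5 in LTED-B, 699.9 ± 13.07 in LTED-D and 57.25 ± 1.214 in LTED-E. In the SUM44 groups the sum was between 0.5528 and 2.24 CPM. These genes share long stretches of sequence, so how the estimate divided reads among them is uncertain, but the sum does not depend on the division within this set (UGT2B7 and UGT2B15 are not in it). Among 6 hepatocyte markers, ALB moved with UGT2B4 in part. Its mean was 0.7661 CPM in MM134 parental cells, 9.826 in LTED-A, 23.54 in LTED-B, 104.1 in LTED-D and 0.789 in LTED-E. ALB was also high in SUM44 groups where UGT2B4 stayed near 1 CPM, at 35.44 CPM in SUM44F, 296.7 in LTED-A and 328.7 in LTED-B. In MM134, SERPINA1 went from 1.941 CPM to 9.425, 28.05, 28.95 and 10.37 CPM. The other 4 markers stayed under 1 CPM in all groups, and the part of ALB or SERPINA1 in the UGT2B result was not tested.

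UGT2B28, named after its values were seen, was at or under 0.223 CPM in every MM134 library. It read 0.238, 0.254 and 0.223 CPM in SUM44F and 0 in all 3 LTED-B libraries, which is at least 3.625-fold lower. UGT3A1, which uses other sugars than glucuronic acid, was DE upward in LTED-E alone among the MM134 variants (0.370, 0.381 and 0.583 CPM against 0.114, 0 and 0.0648, log2 2.89 ± 0.62). UGT8, the galactosyltransferase of myelin lipid synthesis, was DE downward in LTED-D (log2 -1.06 ± 0.21). Both were likewise named after their values were seen.

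**Figure D3:**
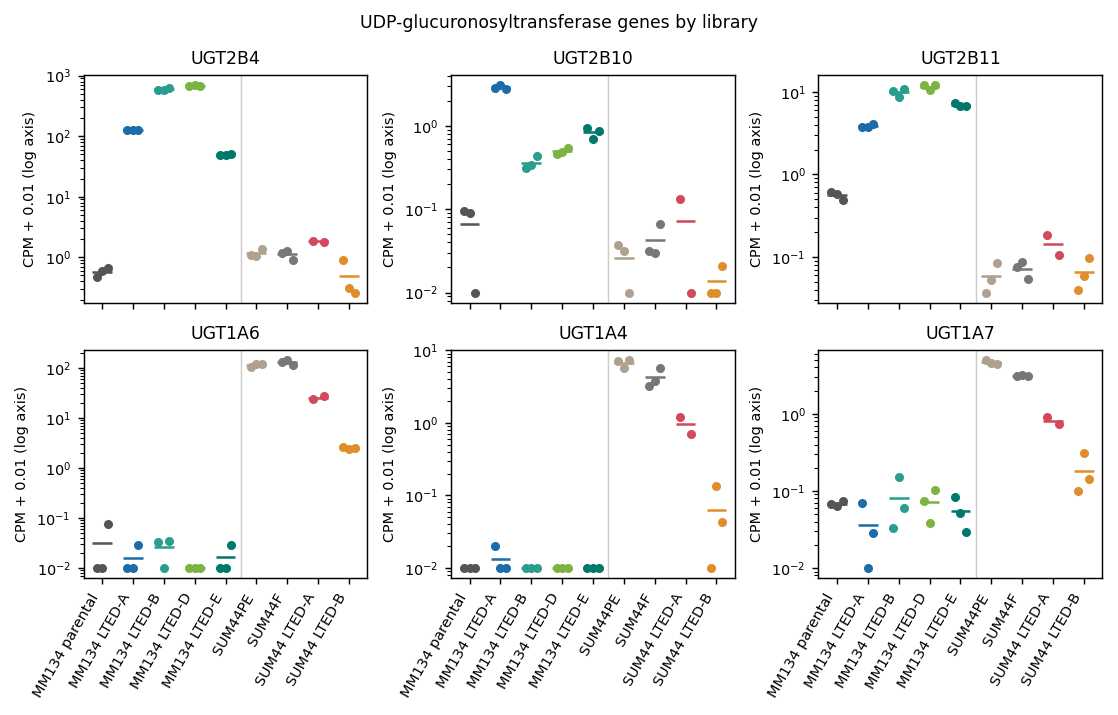
UGT2B4, UGT2B10, UGT2B11, UGT1A6, UGT1A4 and UGT1A7 by sample on a log axis (CPM + 0.01), 1 point per sample and a bar at each group's mean. The 3 UGT2B genes are high in MM134 LTED variants, and the 3 UGT1A genes are high in SUM44PE and SUM44F, lower in SUM44 LTED-A and lowest among SUM44 groups in LTED-B.

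UGT1A genes fell in the SUM44 variants, 2 of 4 tested in LTED-A and 3 of 4 in LTED-B, against 11.8% and 12.0% of protein-coding genes called down. The UGT1A locus on chromosome 2 makes several enzymes from alternative first exons joined to shared later exons, with UGT1A1 clearing bilirubin and UGT1A6 conjugating small phenols. UGT1A6 (chr2:233691607-233773300, plus strand) read 133, 144 and 114 CPM in SUM44F and 104, 122 and 119 in SUM44PE. LTED-A read 24.0 and 27.6 CPM and LTED-B 2.65, 2.40 and 2.48, so the variants did not overlap with SUM44F or with each other. The log2 fold change was -2.33 ± 0.11 in LTED-A (adjusted p = 2.64e-10) and -5.70 ± 0.11 in LTED-B (adjusted p = 2.04e-14). All MM134 libraries were at or under 0.0648 CPM.

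UGT1A7, an enzyme of the upper digestive tract, stepped down in the same order, from 3.08, 3.18 and 3.09 CPM in SUM44F to 0.889 and 0.728 in LTED-A and 0.0903, 0.296 and 0.131 in LTED-B. Its log2 fold changes were -1.96 ± 0.28 (adjusted p = 4.8e-05) and -4.20 ± 0.30 (adjusted p = 2.2e-08). The LTED-A call was lost when either of its samples was left out (adjusted p = 0.00213 and 0.005). UGT1A4, which glucuronidates amines, held 3.19, 3.83 and 5.75 CPM in SUM44F, 1.21 and 0.692 in LTED-A and 0, 0.123 and 0.0328 in LTED-B. It was DE in LTED-B (log2 -6.39 ± 0.58) but missed the threshold in LTED-A (log2 -2.22 ± 0.46, adjusted p = 0.0052). UGT1A1 read 4.18, 6.29 and 4.11 CPM in SUM44F, 2.10 and 1.67 in LTED-A and 1.26, 0.445 and 0 in LTED-B, with standard errors of 1.12 and 1.14 and no DE call.

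Because the shared exons make the split within the locus uncertain, the sum of the 7 UGT1A genes analysed was taken. It was 143 ± 14.79 CPM (SD, n = 3) in SUM44F, 133.9 ± 8.857 (n = 3) in SUM44PE, 29.49 ± 1.81 (n = 2) in LTED-A and 3.302 ± 0.6814 (n = 3) in LTED-B. The sum in MM134 groups lay between 0.8764 and 1.145 CPM. Of the hepatocyte markers, SERPINA1 was also lower in the SUM44 variants, at 5.72 CPM in LTED-A and 15.44 in LTED-B against 179.3 in SUM44F and 240.8 in SUM44PE, while ALB was higher. The part of these markers in the UGT1A result was not tested. A match to TGACNNNGC stood at position -98 in the window of another UGT1A6 start (chr2:233692640-233692939, plus strand), which is not shown. The window before the first of the UGT1A6 starts listed (chr2:233691452-233691701, plus strand) is shown because this gene held most of the summed level. Capitals mark GCGTG, the core letters of the element bound by AHR and ARNT, at position -200.
UGT1A6: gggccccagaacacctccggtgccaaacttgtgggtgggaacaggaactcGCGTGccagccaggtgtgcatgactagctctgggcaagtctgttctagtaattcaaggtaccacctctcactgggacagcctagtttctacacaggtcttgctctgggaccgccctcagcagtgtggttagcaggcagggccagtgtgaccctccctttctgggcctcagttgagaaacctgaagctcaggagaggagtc
GCGTG is a short motif, and on either strand it stood in 24 of 80 windows of the members (30.0%) and in 36.5% of all windows.

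Mu-class GSTs, cytosolic enzymes that detoxify electrophiles and lipid peroxidation products, diverged among the MM134 variants. GSTM1 (chr1:109687814-109709039, plus strand) read 32.7, 32.2 and 33.3 CPM in parental cells, 114, 122 and 126 in LTED-A, 76.7, 82.4 and 76.7 in LTED-B, 2.87, 2.83 and 3.78 in LTED-D and 37.6, 35.8 and 36.0 in LTED-E. It rose in LTED-A (log2 1.87 ± 0.05, adjusted p = 1.99e-22) and LTED-B (1.27 ± 0.05, adjusted p = 2.68e-18) and fell in LTED-D (-3.34 ± 0.07, adjusted p = 3.16e-24). LTED-E was not DE (0.17 ± 0.05). GSTM1 was the only tested member DE in opposite directions among MM134 variants with a group mean of 1 CPM or more. All SUM44 samples were between 0.207 and 1.06 CPM.

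GSTM3 (chr1:109733932-109741038, minus strand), the GST with the highest level per kilobase, changed less. Its libraries held 164 to 167 CPM in MM134 parental cells and 154 to 236 in the variants, with no DE call in MM134. SUM44F held 285, 287 and 244 CPM, LTED-A 302 and 363, and LTED-B 175, 177 and 174, where it fell (log2 -0.63 ± 0.10, adjusted p = 6.0e-05). GSTM2 and GSTM4, named after their values were seen, fell with it in LTED-B (log2 -0.86 ± 0.17 and -0.85 ± 0.12), and GSTM2 rose in MM134 LTED-B (1.22 ± 0.08). The sum of the GSTM genes, which share sequence, was 225.5 ± 2.707 CPM (SD, n = 3) in MM134 parental cells and 253.7 ± 7.074 in LTED-D, so the sum was not lower there although GSTM1 was.

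Alpha-class GSTs are abundant in liver and known for steroid isomerase and peroxidase activity. Of 4 tested in MM134, 3 (GSTA1, GSTA2 and GSTA3) were DE upward, to low levels, in at least 3 variants. Of protein-coding genes, 9.22% were so called. All 3 were below detection in parental cells and passed the filter on low counts only through LTED groups, so their calls were bound to come out. GSTA3 was below detection in parental cells (0.0286, 0.0809 and 0 CPM) and read 1.46, 1.49 and 1.88 CPM in LTED-A, 1.19, 1.38 and 1.39 in LTED-D and 0.278, 0.354 and 0.448 in LTED-B. These are at least 18.3-fold, 15.02-fold and 4.094-fold higher, and all 3 variants were DE. LTED-E at 0.173, 0.212 and 0.0777 CPM was not. In SUM44F GSTA3 held 0.650, 0.722 and 0.690 CPM, and it fell in LTED-B (log2 -1.44 ± 0.29, adjusted p = 0.000728). That last call was lost without SUM44F replicate 1 (-1.48, adjusted p = 0.00136) and without each other library of the 2 groups in turn (adjusted p up to 0.00837).

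GSTA1 and GSTA2, which are near copies of each other, were DE in LTED-A, LTED-B and LTED-E but stayed under 1 CPM, so the naming rule did not pick them. Both passed the filter only through LTED groups, so these calls were bound to come out. GSTA1 had no count in MM134 parental cells and read 0.381, 0.557 and 0.353 CPM in LTED-A, at least 4.894-fold higher. For GSTA2 the bounds were 3.702-fold in LTED-A, 3.152-fold in LTED-B and 2.843-fold in LTED-E. GSTA4, which conjugates the lipid peroxidation product 4-hydroxynonenal, held means between 19.6 and 36.53 CPM in the 9 groups and was not DE in any LTED variant.

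GSTK1, a kappa-class enzyme of mitochondria and peroxisomes, was lower in both SUM44 variants. SUM44F held 63.4, 62.1 and 49.8 CPM, LTED-A 31.1 and 31.2, and LTED-B 24.8, 25.8 and 26.9. The log2 fold changes were -0.90 ± 0.11 (adjusted p = 6.2e-06) and -1.18 ± 0.09 (adjusted p = 7.9e-08). In MM134 it was DE in LTED-E alone (27.3, 26.4 and 27.0 CPM against 45.7, 45.8 and 46.1, log2 -0.76 ± 0.04).

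GSTT2B, a theta-class enzyme, was a gene of one line. It held 51.7, 55.3 and 54.0 CPM in MM134 parental cells, 34.9 to 53.3 in the MM134 variants and at most 0.520 in any SUM44 library. Its near copy GSTT2 ran at 2.49 to 3.77 CPM in MM134 parental cells, and the pair summed to 56.75 ± 1.425 CPM there (SD, n = 3) against 0.2282 in SUM44F. Neither was DE in any LTED variant. The omega-class gene GSTO1 held 40.72 ± 0.6741 CPM in MM134 parental cells and 18.53 ± 1.602 in SUM44F (SD, n = 3) and was not DE in any LTED variant.

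GSTP1, the pi-class enzyme that many luminal tumors silence, read 3.95 CPM in SUM44F replicate 1 and at most 0.253 CPM in every other library. It is named after its values were seen because that library also holds the high stromal genes. CYP24A1, the vitamin D 24-hydroxylase, did the same, with 1.995 CPM in that library and under 1 CPM elsewhere. The part of other cells in these readings was not tested.

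**Figure D4:**
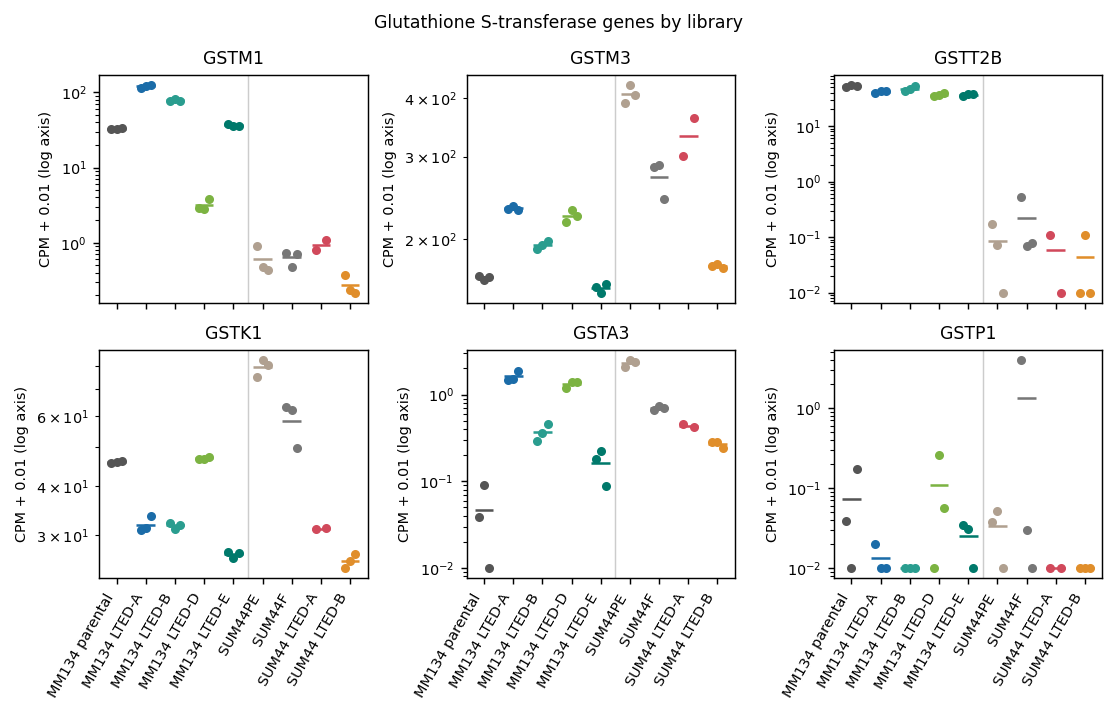
GSTM1, GSTM3, GSTT2B, GSTK1, GSTA3 and GSTP1 by sample on a log axis (CPM + 0.01), 1 point per sample and a bar at each group's mean. GSTM1 is high in MM134 LTED-A and LTED-B and low in LTED-D, GSTT2B is near 0 in all SUM44 groups, and GSTP1 reaches 3.95 CPM in 1 SUM44F library.

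CYP1B1 (chr2:38066973-38109902, minus strand), an AHR target that hydroxylates estradiol and activates polycyclic hydrocarbons, had the highest level per kilobase among the CYP genes. MM134 parental libraries held 508, 494 and 493 CPM, LTED-A 431, 433 and 433, and LTED-E 460, 450 and 459. LTED-B held 201, 212 and 237 CPM and LTED-D 196, 197 and 195, and only these were DE (log2 -1.20 ± 0.04 and -1.33 ± 0.04). SUM44F held 110, 112 and 114 CPM, LTED-A 79.0 and 76.5, and LTED-B 185, 200 and 192. CYP1B1 rose in SUM44 LTED-B (log2 0.78 ± 0.07, adjusted p = 5.4e-07), while LTED-A at log2 -0.53 ± 0.08 stayed under the 1.5-fold limit.

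On the list of 19 CYP genes of xenobiotic oxidation, which holds CYP1B1, 11 were tested in MM134, with 0 up and 0 down in LTED-A, 1 up and 1 down in LTED-B, 0 up and 1 down in LTED-D, and 0 up and 0 down in LTED-E, against 21.4% to 27.3% of protein-coding genes called in the 4 variants. Of 14 tested in SUM44, 1 rose and 1 fell in each variant, against 22.6% and 26.4% of protein-coding genes called in LTED-A and LTED-B. CYP3A7, the fetal liver form of CYP3A, fell in both SUM44 variants, from 1.58, 1.60 and 1.47 CPM in SUM44F to 0.222 and 0.132 in LTED-A (log2 -3.22 ± 0.36) and 0.331, 0.222 and 0.164 in LTED-B (-2.78 ± 0.30). CYP1A1, the classical AHR target, was DE upward in MM134 LTED-B (log2 2.42 ± 0.52) and SUM44 LTED-A (2.76 ± 0.50) but never passed 0.631 CPM. CYP2D6, which metabolizes tamoxifen to endoxifen, had means from 3.594 to 7.606 CPM and was not DE in any variant.

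CYP4 enzymes hydroxylate fatty acids, leukotrienes and prostaglandins. All CYP4 members but CYP4X1 and CYP4Z1 made up, with CYP2J2 and CYP2U1, the list of fatty acid and eicosanoid CYP genes. CYP4X1 and CYP4Z1 were listed as having no well known substrate and are not in the counts that follow. All 12 on it were tested in MM134, with 2 up and 6 down in LTED-A and LTED-B and 2 up and 4 down in LTED-D and LTED-E, against 10.3% to 14.0% of protein-coding genes called down in the 4 variants. Of 11 tested in SUM44, 6 fell in LTED-A and none rose, while 3 fell and 1 rose in LTED-B. Of protein-coding genes, 11.8% and 12.0% were called down and 10.8% and 14.5% up in SUM44 LTED-A and LTED-B.

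CYP4F22 (chr19:15508525-15552317, plus strand), the hydroxylase of very long fatty acids for skin acylceramides, fell in MM134 and split the SUM44 variants. MM134 parental libraries held 2.66, 2.78 and 2.33 CPM. LTED-A held 0.0501, 0.111 and 0.0744, LTED-B 0.0928, 0.0944 and 0.124, LTED-D 0.194, 0.168 and 0.139, and LTED-E 0.0741, 0.0212 and 0.0194. The log2 fold changes were -5.10 ± 0.28, -4.61 ± 0.29 and -3.94 ± 0.28 in the first 3, and LTED-E was at least 39.65-fold lower. In SUM44, CYP4F22 fell from 1.84, 1.39 and 1.17 CPM to 0.667 and 0.579 in LTED-A (log2 -1.24 ± 0.21, adjusted p = 0.000239) and rose to 8.55, 7.83 and 9.04 in LTED-B (2.54 ± 0.17, adjusted p = 1.2e-08). The LTED-A call was lost when either of its samples was left out (adjusted p = 0.00424 and 0.0109), and the LTED-B call was not.

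Its neighbors in the chromosome 19 cluster did not move as a block. CYP4F12, which oxidizes arachidonic acid and some antihistamines, rose in every MM134 variant, from 3.29, 2.83 and 3.17 CPM to 15.3, 15.5 and 14.1 in LTED-A, 9.28, 8.57 and 7.66 in LTED-B, 8.07, 8.39 and 7.57 in LTED-D and 13.6, 13.2 and 12.7 in LTED-E. The log2 fold changes ran from 1.38 ± 0.09 to 2.27 ± 0.08. CYP4F8, a prostaglandin hydroxylase, fell in all 6 variants of both lines. It went from 5.86, 6.88 and 5.89 CPM to 1.61 to 3.23 in the MM134 variants (log2 -1.87 to -1.03), and from 7.44, 9.21 and 6.89 CPM in SUM44F to 2.50 and 2.02 in LTED-A and 1.99, 1.83 and 1.81 in LTED-B (-1.80 ± 0.17 and -2.07 ± 0.15). CYP4F11 fell in all 4 MM134 variants, from 2.917 ± 0.05382 CPM to means of 0.3706 to 0.865, and in SUM44 LTED-A (log2 -2.59 ± 0.40), where the call was lost without the averaged sample (-2.01, adjusted p = 0.00675). CYP4F3, which inactivates leukotriene B4, fell from 11.18 ± 0.3546 CPM to 6.803 in LTED-A, 4.751 in LTED-B and 3.71 in LTED-E, and its mean of 7.622 in LTED-D was not DE. These genes resemble each other in sequence, which leaves the division of reads among them uncertain.

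CYP4V2 (chr4:186191567-186213463), an omega-hydroxylase mutated in a corneal and retinal dystrophy, rose in every MM134 variant. Parental libraries held 23.7, 24.8 and 22.1 CPM, LTED-E 39.4, 37.9 and 40.2, LTED-A 46.3, 44.4 and 43.9, LTED-D 68.4, 65.7 and 63.9, and LTED-B 75.4, 75.8 and 77.6. Groups did not overlap, and the log2 fold changes ran from 0.74 ± 0.04 to 1.70 ± 0.04. In SUM44F it held 69.5, 73.9 and 72.2 CPM and fell to 43.8 and 46.6 in LTED-A (log2 -0.67 ± 0.08), which without replicate 1 of LTED-A was -0.58 and under the 1.5-fold limit. LTED-B held 98.5, 101 and 100 CPM, which was below the 1.5-fold limit.

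CYP4Z1 and CYP4X1, neighbors on chromosome 1 and known for expression in breast, fell in both SUM44 variants. CYP4Z1 (chr1:47067231-47118318) held 78.5, 81.0 and 73.2 CPM in SUM44F, 25.6, 25.5 and 25.4 in LTED-B and 10.7 and 11.1 in LTED-A (log2 -1.61 ± 0.07 and -2.83 ± 0.09). SUM44PE held 19.9, 21.2 and 21.0 CPM, so SUM44F was the highest of the SUM44 groups. In MM134 the gene ran the other way, from 2.34, 1.83 and 1.85 CPM to 7.98, 7.68 and 6.17 in LTED-A and 4.27, 4.79 and 4.72 in LTED-E (log2 1.85 ± 0.12 and 1.20 ± 0.12). CYP4X1 held 12.2, 13.5 and 11.7 CPM in SUM44F, 5.99, 6.56 and 5.42 in SUM44PE, 1.85 and 2.19 in LTED-A and 1.505, 1.112 and 1.495 in LTED-B (-2.61 ± 0.17 and -3.18 ± 0.15 against SUM44F).

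CYP4B1, which activates furans in lung, fell in 3 MM134 variants, with log2 fold changes from -0.72 ± 0.12 in LTED-D through -0.94 ± 0.12 in LTED-B to -1.502 ± 0.123 in LTED-A. In SUM44 it held 25.1, 27.8 and 24.8 CPM in SUM44F, 19.1 and 19.8 in LTED-A and 3.25, 4.25 and 3.75 in LTED-B, where it fell (log2 -2.78 ± 0.11, adjusted p = 2.6e-11). CYP2J2, the epoxygenase of arachidonic acid, held 4.94, 4.43 and 4.14 CPM in SUM44F, 0.593 and 0.762 in LTED-A and 0.181, 0.222 and 0.175 in LTED-B (log2 -2.70 ± 0.21 and -4.56 ± 0.22). It had no count in any MM134 LTED-B library and was at least 3.54-fold lower there than the parental 0.200, 0.270 and 0.291 CPM.

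**Figure D5:**
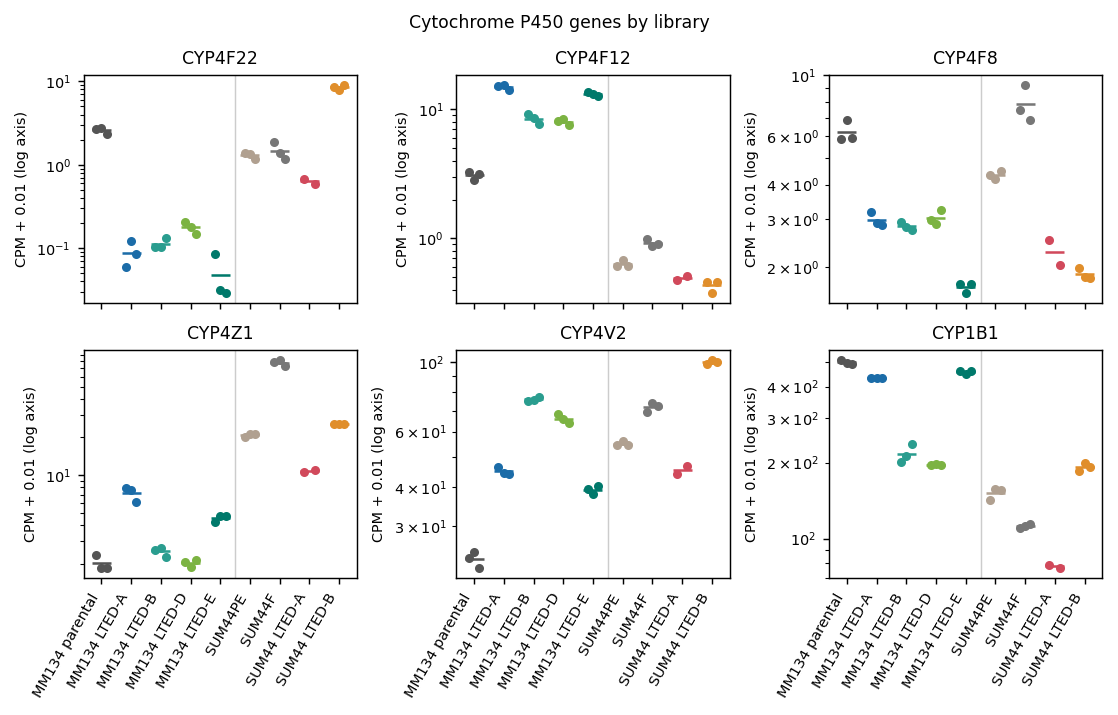
CYP4F22, CYP4F12, CYP4F8, CYP4Z1, CYP4V2 and CYP1B1 by sample on a log axis (CPM + 0.01), 1 point per sample and a bar at each group's mean. CYP4F22 is lower in every MM134 LTED library than in the parental ones and higher in SUM44 LTED-B than in SUM44F, and CYP4F12 is higher in every MM134 LTED library than in the parental ones.

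Of 7 sterol, bile acid and steroid CYP genes tested in each line, 1 fell in at least 3 MM134 variants and 1 in both SUM44 variants. Of 5 vitamin A and D genes none was so called. Beside these, 9.63% of protein-coding genes fell in at least 3 MM134 variants and 7.38% in both SUM44 variants. CYP39A1, the 24-hydroxycholesterol 7-alpha-hydroxylase, fell in all 4 MM134 variants, from 3.34, 3.07 and 3.89 CPM to 1.08 to 1.49 (log2 -1.51 to -1.23), and was at or under 0.367 CPM in SUM44. CYP7B1, the oxysterol 7-alpha-hydroxylase, read 0.607, 0.898 and 0.779 CPM in SUM44F and at most 0.0109 in the variants, so it was lower by at least 15.17-fold (LTED-A) and 11.58-fold (LTED-B). CYP7A1, the rate-limiting enzyme of bile acid synthesis in liver, had no count in MM134 parental cells and read 0.221, 0.316 and 0.297 CPM in LTED-A and 0.296, 0.254 and 0.369 in LTED-E, at least 3.16-fold and 3.486-fold higher. CYP7B1 and CYP7A1 stayed under 1 CPM and were named after their values were seen.

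CYP26B1, which clears retinoic acid, held 15.3, 15.2 and 13.2 CPM in MM134 parental cells. It fell in LTED-B (log2 -0.63 ± 0.07) and LTED-E (-0.73 ± 0.07), and without replicate 1 of LTED-B the first was -0.57 and under the 1.5-fold limit. In SUM44 it rose from 6.03, 7.55 and 5.73 CPM to 9.45, 9.27 and 10.3 in LTED-B (0.59 ± 0.12, adjusted p = 0.000839), a call that was lost without SUM44F replicate 1 (0.54, adjusted p = 0.00366), without SUM44F replicate 3 (0.51) and without any 1 LTED-B library (0.54 to 0.62). CYP2R1, a vitamin D 25-hydroxylase among the 3 highest CYP genes per kilobase, had means of 30.61 to 39.88 CPM in MM134 and 16.66 to 21.64 in SUM44 and was DE in no variant. CYP20A1, which has no well known substrate, had means of 49.87 to 60.16 CPM in all 9 groups.

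Before any long-term deprivation the lines already differed. Of 77 genes tested between SUM44F and MM134 parental cells, 40 were DE (24 higher and 16 lower in SUM44F, 51.9% against 47.9% of protein-coding genes, of which 23.1% were higher and 24.8% lower), and 38 without SUM44F replicate 1. UGT1A6 was at least 1483-fold higher in SUM44F and UGT1A4 at least 48.39-fold, while GSTT2 was at least 59.15-fold lower. GSTT2B was lower by log2 -8.21 ± 0.33, and GSTM1 by -5.67 ± 0.13. CYP2U1, a fatty acid hydroxylase named after its values were seen, was also lower in SUM44F (-5.65 ± 0.16). CYP4Z1 was higher (5.27 ± 0.10). Each line is a single isolate, so line and donor cannot be told apart.

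SUM44PE and SUM44F are the same line kept in different media before the hormone withdrawal. They differed in 5 of 67 genes (1 higher and 4 lower in SUM44PE, 7.46% against 9.10% of protein-coding genes, of which 4.71% were higher and 4.39% lower), and in 6 (2 higher and 4 lower) without SUM44F replicate 1. GSTA3 was higher in SUM44PE (2.06, 2.47 and 2.34 CPM against 0.650, 0.722 and 0.690, log2 1.72 ± 0.19). CYP4Z1 (-1.91 ± 0.07), CYP27A1, the sterol 27-hydroxylase (-1.61 ± 0.27), CYP4X1 (-1.06 ± 0.13) and CYP4F8 (-0.87 ± 0.13) were lower. The CYP27A1 call was lost without any 1 SUM44PE library (adjusted p up to 0.00227). None of 11 UGT genes tested was DE.

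The difference between the variants of the lines was tested by taking the average log2 change over the 4 MM134 variants and subtracting the average over the 2 of SUM44. Its p-values rest on the spread between wells and do not measure the spread between derivations. It was DE for 22 of 77 genes (18 positive and 4 negative, 28.6% against 30.6% of protein-coding genes), and for 20 (16 positive and 4 negative) without SUM44F replicate 1. Of 16367 protein-coding genes tested, 2451 were DE with a positive value and 2563 with a negative one. Among the positive members, UGT2B10, UGT2B11, GSTA3 and UGT1A7 were at or near the detection limit in 1 line or in MM134 parental cells. The largest positive value was that of UGT2B4 (8.97 ± 0.29, adjusted p = 5.61e-18), and the largest negative one that of CYP4F22 (-5.59 ± 0.24, adjusted p = 1.62e-18). UGT1A6 could not be compared this way, since MM134 had almost no reads (standard error 92.1).

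Other genes of the pathway were counted from fixed lists by the same test. Among all protein-coding genes tested, 18.8% were called in one direction in at least 3 MM134 variants (9.22% up and 9.63% down) and 14.2% in both SUM44 variants (6.80% up and 7.38% down). For the members these counts were 14 (8 up and 6 down, 23.3%) and 9 (all down, 14.1%). Among xenobiotic receptors and sensors, AHR, the dioxin receptor, rose from a mean of 74.02 CPM to 244.2 in LTED-A, 135.8 in LTED-B and 186.7 in LTED-E, and its 99.58 CPM in LTED-D was not DE. It fell in SUM44 from 84.99 to 45.88 and 28.57 CPM (log2 -0.89 ± 0.09 and -1.57 ± 0.08). Its target CYP1B1 was DE downward in MM134 LTED-B and LTED-D and upward in SUM44 LTED-B, and not in the other variants. CYP1A1, also a target, was DE upward in MM134 LTED-B and SUM44 LTED-A but stayed under 1 CPM. The part of AHR in these changes was not tested. NR1I3, the constitutive androstane receptor, rose in all 4 MM134 variants from 1.71 CPM to 2.864 to 3.417. PPARA, the fatty acid receptor, fell from 34.8 CPM to 10.4 to 16.79.

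On the list of 4 genes that supply or remove UDP-glucuronic acid, the UGT cosubstrate, 2 rose in at least 3 MM134 variants. UGDH, the dehydrogenase that makes it, rose from 81.13 CPM to 614.4, 422.4, 489.7 and 716.7 in LTED-A, -B, -D and -E (log2 2.38 to 3.15), and from 28.83 CPM in SUM44F to 58.1 and 69.43. SLC35D1, a transporter of the sugar nucleotide into the endoplasmic reticulum, rose from 28.31 CPM to 47.02 to 51.06 in the MM134 variants. UGP2, which makes UDP-glucose, was not DE in any variant (log2 -0.29 to 0.24), and GUSB, the beta-glucuronidase that cleaves glucuronides, rose in MM134 LTED-B and LTED-E (0.65 and 0.92).

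Of 11 genes of glutathione supply and NRF2 response, 4 rose and none fell in at least 3 MM134 variants, while 2 rose and 2 fell in both SUM44 variants. NQO1, the quinone reductase, went from 150.2 CPM to 1315, 789.8, 366.5 and 1404 in the MM134 variants and was DE upward in all 4. SLC7A11, the cystine importer, rose from 8.391 CPM in SUM44F to 103.7 and 95.17. In MM134 it rose from 6.01 CPM to 10.29 in LTED-A, 12.35 in LTED-D and 35.22 in LTED-E, and its 6.338 CPM in LTED-B was not DE. In SUM44, GCLC, the glutathione synthesis enzyme, fell from 221.4 to 118.4 and 117.1, and HMOX1, haem oxygenase, from 16.68 to 2.284 and 3.778.

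Among 8 genes of CYP electron donors and haem supply, CYB5R3 rose in all 4 MM134 variants, from 37.95 CPM to 67.38 to 82.08. CYB5A, cytochrome b5, fell in both SUM44 variants from 152.4 to 28.74 and 73.66. Of 8 microsomal GST and glutathione peroxidase genes, GPX1, GPX2 and PTGES rose in at least 3 MM134 variants and none was called in both SUM44 variants. On the list of sulfation, acetylation, methylation and hydrolysis, none of 13 tested was called in at least 3 MM134 variants. In SUM44, 4 of 15 fell in both variants, namely SULT1A1, SULT1A2, TPMT and SULT1E1, the estrogen sulfotransferase (4.078 CPM in SUM44F against 0.07291 and 0.146, and 0.3886 in SUM44PE).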

How the data were processed

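Total RNA of 27 libraries was sequenced by the authors on an Illumina HiSeq after library preparation with a stranded total RNA kit. The authors deposited estimated counts per Ensembl gene from Salmon 0.6.0 against hg38. Read trimming and the strand setting are not given in the sources used here. Estimated counts divide reads among genes that share sequence, so levels within the UGT1A, UGT2B, GSTA, GSTM, GSTT2 and CYP4F families carry an uncertainty that replicate error does not show.

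Counts were rounded to whole numbers, and Ensembl IDs were matched to GENCODE v44 (hg38) for symbols and coordinates. GSTT1, UGT1A3 and UGT1A5 were not analysed here, and a few genes of the pathway lists are not reported. Replicates 2 and 3 of SUM44 LTED-A (chi-square per degree of freedom 0.312, against 2.35 to 58.1 in the other 26 pairs) were averaged into 1 sample. edgeR 4.0.16 in R 4.3.3 was used with filterByExpr, TMM and the robust quasi-likelihood test (two-sided), in 1 fit of the MM134 groups, 1 of SUM44F with its variants, 1 that added SUM44PE and 1 of all 9 groups for SUM44F against MM134 and for the difference between lines. Standard errors are from these fits. DE genes passed a 1.5-fold change and an adjusted p of 0.001, the thresholds of the study's methods. Fold changes against a group below detection are bounds at 3 counts per library, which cover counting error only. Tested on simulated counts, the procedure called 67% of genes changed 2-fold in MM134 LTED-A (25574 genes) and 44% in SUM44 LTED-A (25991 genes), and 99% of those changed 4-fold in either, with 0 false calls. The simulation gave every gene the same spread, changed 200 genes above a minimum mean count and left the rest unchanged. These rates therefore do not cover members near the detection limit or data in which many genes change.

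The members and lists were chosen with earlier results of these data known. Genes named were members DE in 1 direction in at least 3 MM134 variants or both SUM44 variants, DE in opposite directions within a line, among the 3 highest per kilobase in each family, or among the 3 largest changes each way between parental lines, between SUM44PE and SUM44F and between the lines' responses, all with a group mean of at least 1 CPM except the highest per kilobase. UGT1A1, GSTA1, GSTA2, GSTA4, CYP1A1, CYP2D6 and CYP20A1 were described although this rule did not pick them. Pathway genes named were called in 1 direction in at least 3 MM134 variants or both SUM44 variants, except UGP2 and GUSB. Promoter windows were RefSeq GRCh38.p14 sequences. Alternatives were DESeq2 1.42.0, RLE scaling, other filters and thresholds, a replicate block, each sample left out, and, chosen after seeing the data, leaving out every library with COL3A1 above 5 CPM. Figures were drawn with matplotlib 3.10.9.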

Additional observations from a re-analysis of the deposited data

Results flagged for a closer look

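For 16 of the named genes, the average LTED change differed between the variants of the lines. The test was edgeR's quasi-likelihood test of the average log2 change over the 4 MM134 variants less the average over the 2 of SUM44, with its SE. Its error is that between wells of these cultures, so the spread between derivations was not tested. In SUM44, CYP4F22 and CYP1B1 were lower in LTED-A and higher in LTED-B, so their averages describe neither variant. Positive values were found for UGT2B4 (8.97 ± 0.29), GSTA3 (4.90 ± 0.45), UGT2B10 (4.87 ± 1.07), UGT2B11 (3.18 ± 0.43), CYP4Z1 (3.07 ± 0.11), UGT1A7 (2.89 ± 0.60), CYP4F12 (2.78 ± 0.14), CYP4X1 (2.51 ± 0.20), CYP4V2 (1.31 ± 0.06), CYP4B1 (0.74 ± 0.12), CYP4F8 (0.66 ± 0.14) and GSTK1 (0.59 ± 0.07). Negative values were found for CYP4F22 (-5.59 ± 0.24), CYP26B1 (-0.98 ± 0.11), CYP4F3 (-0.86 ± 0.15) and CYP1B1 (-0.84 ± 0.06). The largest adjusted p among the 16 was 0.000346, for UGT2B10.

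CYP4F8 fell in all 6 variants, on average further in those of SUM44. GSTK1 fell in both SUM44 variants and in MM134 LTED-E, with log2 values of -0.53, -0.52 and 0.04 in MM134 LTED-A, -B and -D that were not DE. UGT2B10, UGT2B11, GSTA3 and UGT1A7 were at or near the detection limit in 1 line or in MM134 parental cells, so the size of their value depends on the prior count of the fit. Leaving out 1 sample ended the call for GSTK1 (0.53 to 0.58 in 9 of the settings), for CYP4F8 without MM134 parental replicate 1 or 3, SUM44F replicate 2 or the averaged SUM44 LTED-A sample (0.53 to 0.60), for UGT1A7 without MM134 LTED-A replicate 1 (2.50) or MM134 parental replicate 2 (2.81) and for UGT2B10 without SUM44F replicate 3 (4.08, adjusted p = 0.0428).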

How the results depend on the processing

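For single named genes, 2150 of 2237 values under alternatives kept direction and call, 87 kept direction and lost the call, and none changed sign. Of 128 named results, 97 kept their call under every alternative. Requiring 10 counts in every library gave 11, 13 and 11 DE members in MM134 LTED-A, -B and -E, 9 and 13 in SUM44 LTED-A and -B, 17 between parental lines, 9 in at least 3 MM134 variants and 5 in both SUM44 variants, with fewer genes tested. An adjusted p under 0.05 gave 25 and 35 in SUM44 LTED-A and -B, 11 between SUM44PE and SUM44F, 35 for the difference between lines and 15 in both SUM44 variants. With no minimum fold change, 11 genes were DE between SUM44PE and SUM44F, and with no filter 8. Above 2-fold, 14 were DE for the difference between lines. Leaving out each sample in turn gave 17 to 19, 18 to 20, 13 to 15 and 15 to 17 in MM134 LTED-A, -B, -D and -E, 13 to 16 and 16 to 20 in SUM44 LTED-A and -B, 4 to 7 between SUM44PE and SUM44F, 34 to 38 between parental lines, 19 to 24 for the difference, 13 to 14 in at least 3 MM134 variants and 8 to 10 in both SUM44 variants. Without libraries with COL3A1 above 5 CPM, chosen after seeing the data, SUM44 LTED-B had 16 DE members and the parental lines 35. RLE scaling moved the median of all genes by -0.0479 to 0.0382. DESeq2 did not call CYP2J2 in MM134 LTED-A (adjusted p = 0.00275), GSTA3 in SUM44 LTED-B (adjusted p = 0.00646) or the difference between lines for GSTK1. Replicate numbers did not pair the samples (6 of 30 MM134 pairs and 2 of 7 SUM44 pairs with the same number correlated above 0.1). A replicate block gave 19 DE members in SUM44 LTED-B, where GSTA3 and CYP26B1 lost their calls, and 6 between SUM44PE and SUM44F.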
